A study of Mus musculus with 2 samples.

Results

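RNA of the gastrocnemius, a mostly fast-twitch calf muscle, was examined here for 40 genes of sugar breakdown: the isozymes of glycolysis, the enzymes that branch from it and the carriers that move glucose and lactate across the cell membrane. The 40 genes were taken from a list of symbols in 17 reaction groups, of which 15 hold at least 2 forms, and they are 40 of the 55536 annotated genes of the deposited gene tables. Each symbol was matched to its gene identifier through the transcript names of the deposited tables, and the forms of a reaction were compared with each other: the form known from skeletal muscle against those known from liver, brain or testis. The data are total RNA-seq, which counts fragments of RNA per gene after ribosomal RNA has been reduced. The series has 1 group of 2 libraries from adult male mice of 8 to 10 months labelled as the cross of 5xFAD with Cast, strain 5xFAD/CAST, each made from 300 ng of RNA with ERCC spike-ins added. 5xFAD mice carry mutant human transgenes under the Thy1 promoter, which is active mainly in neurons, and serve as a model of amyloid deposition. CAST mice are inbred and descend from the wild subspecies castaneus. Whether each animal carried the transgenes was not given in the sources used here, and both libraries share the cross, the sex and the age range. The libraries are labelled biological replicates 1 and 2 and belong to separate biosamples that cite the same donor record, so nothing states that they are separate animals. The series holds no control genotype, other tissue or other age, so no p-value can be given, and every mean ± SD below is over n = 2 libraries.

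Glycolysis turns a molecule of glucose into pyruvate in a chain of enzymes in the cytosol and yields ATP without oxygen. Fast muscle fibres run it at very high rates, feed it from glycogen through glucose 1-phosphate, and turn much of the pyruvate into lactate, which leaves the fibre on monocarboxylate transporters. Most steps have several isozymes, products of separate genes that catalyse the same reaction with different kinetics and that tissues express in different mixtures.

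The gene tables held 35412221 expected counts over annotated genes in replicate 2 and 35163957 in replicate 1. All 8 listed markers of skeletal muscle fibres were at 1 TPM or more and summed to 84256 TPM in replicate 2 and 87797 TPM in replicate 1. TPM is a level corrected for transcript length and scaled to the same sum in each library. Of markers of other cells, adipocyte genes summed to 155 and 215 TPM, endothelial genes to 43.8 and 60.8 TPM, slow fibre genes to 1375 and 1578 TPM, erythroid genes to 300 and 370 TPM, fibroblast genes to 266 and 266 TPM, genes of neurons, axons and Schwann cells to 13.3 and 17.6 TPM (2 of 8 at 1 TPM or more), and leukocyte genes to 20.3 and 24.6 TPM (Cd3e at 0), in replicates 2 and 1 each time. Hepatocyte genes summed to 8.16 and 6.15 TPM, of which Cyp2e1 gave 7.81 and 5.85 TPM, with Apoa1 and Tat at 0. Testis germ cell genes summed to 0.01 and 0.01 TPM with 5 of 6 at 0. In bulk tissue, fewer cells of a type and less RNA per cell cannot be told apart.

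The 40 genes together held 2.69% of all TPM in replicate 2 and 2.81% in replicate 1. The level ran over more than 4 orders of magnitude: 8 genes averaged 1000 TPM or more, 9 lay from 100 to under 1000, 6 from 10 to under 100, 8 from 1 to under 10, 4 were detected below 1 and 5 had 0 counts in both libraries. In all, 31 of 40 were at 1 TPM or more in both libraries. The 8 highest were the middle and lower enzymes of the chain in their muscle or ubiquitous forms: Aldoa (10942 ± 421 TPM), Gapdh (4375 ± 169), Eno3 (3109 ± 22.3), Pkm (1433 ± 26.5), Pfkm (1431 ± 14.8), Ldha (1277 ± 24.9), Pgam2 (1183 ± 12.6) and Tpi1 (1145 ± 56.9). Aldoa ranked 8 and Gapdh 13 among 22015 nuclear protein-coding genes by mean TPM. In the gene tables Pkm and Pfkm did not differ beyond their spread, nor did Pgam2 and Tpi1, whose values overlapped between libraries. Across these 8 genes the gap between libraries was 1.01% to 7.03% of the mean.

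**Figure D1:**
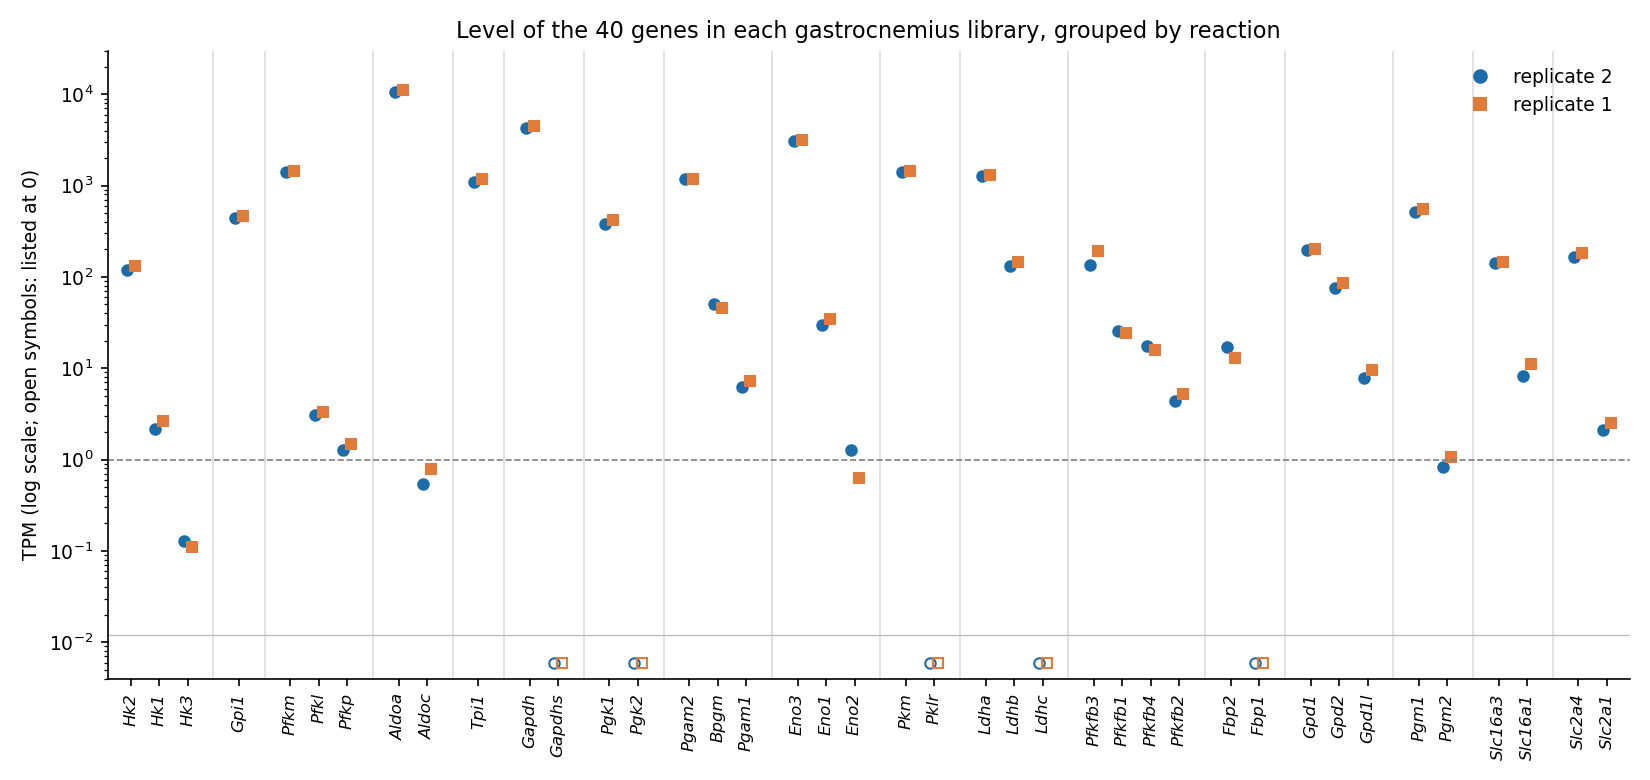
TPM of the 40 genes on a log scale, with replicate 2 as circles and replicate 1 as squares, grouped by reaction with the leading form on the left of each group; open symbols mark genes listed at 0 and the dashed line marks 1 TPM. Aldoa stands highest at 10942 TPM on average, and 5 genes (Gapdhs, Pgk2, Pklr, Ldhc and Fbp1) are at 0 in both libraries.

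A single form dominated nearly every reaction. In 13 of the 15 reactions with several forms the leading form held at least 90% of the summed TPM of its group, and in each the leader was the same gene in both libraries. The exceptions were the glycerol-3-phosphate dehydrogenases and the enzymes that make and remove fructose 2,6-bisphosphate. Lactate dehydrogenase sat at the limit, with Ldha at 90.1 ± 0.52%.

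**Figure D2:**
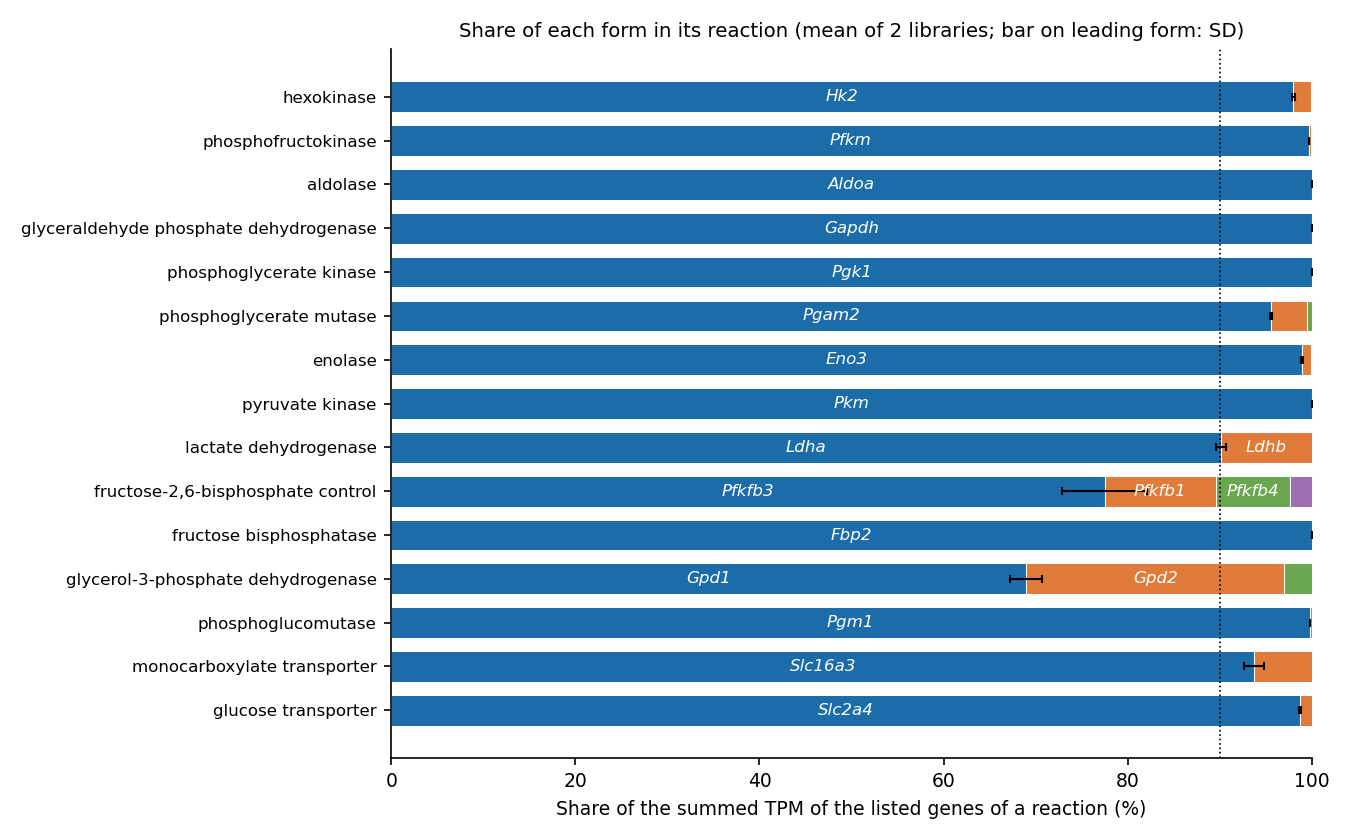
Share of each form in the summed TPM of its reaction (horizontal axis, mean of 2 libraries in percent), with the leading form leftmost and its SD as a black bar; the dotted line marks 90%. Gpd1 (69.0%) and Pfkfb3 (77.5%) are the leading forms below the line, and Ldha (90.1%) lies on it.

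Of the pair of glucose transporters in the set, the insulin-responsive form had the higher RNA level. Slc2a4, which encodes GLUT4, the transporter that insulin and contraction bring to the surface of muscle and fat cells (chromosome 11, 69942539 to 69948188), had 167 TPM in replicate 2 and 184 TPM in replicate 1. Slc2a1, which encodes GLUT1, the transporter of red cells, brain vessels and growing cells, had 2.09 and 2.53 TPM. Slc2a4 was thus 76.1 ± 4.99 times Slc2a1 and held 98.7 ± 0.08% of the pair, a difference far larger than the spread between libraries. Among transporters outside the set, Slc2a3, Slc2a8 and Slc2a12 averaged 4.91, 5.01 and 5.42 TPM, above Slc2a1 and far below Slc2a4.

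Hk2, the hexokinase of insulin-sensitive tissues that traps glucose as glucose 6-phosphate (chromosome 6, 82725025 to 82774454), had 120 TPM in replicate 2 and 131 in replicate 1. Hk1, the form of brain and red cells that binds mitochondria, had 2.18 and 2.68 TPM, and Hk3, known from leukocytes, had 9 and 8 counts, with exact Poisson 95% intervals of 4.12 to 17.1 and 3.45 to 15.8 counts that cover counting error only. Hk2 held 98.0 ± 0.14% of hexokinase TPM. Against the rest of the chain hexokinase was scarce: Pfkm was 11.4 ± 0.57 times and Aldoa 87.1 ± 1.89 times Hk2 in TPM, while Hk2 was 0.72 ± 0.01 of Slc2a4.

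Pgm1 and Gpi1 stand at the join of glycogen and glycolysis. Pgm1, the phosphoglucomutase that turns glucose 1-phosphate from glycogen into glucose 6-phosphate (the gene on chromosome 4, 99929414 to 99987294, in this annotation), had 510 TPM in replicate 2 and 554 in replicate 1, against 0.84 and 1.06 TPM for Pgm2 on chromosome 5, an enzyme that also acts on pentose phosphates. Pgm1 held 99.8 ± 0.02% of the pair. Gpi1, glucose phosphate isomerase, has no paralogue in the set and had 439 and 470 TPM. Of hexokinase, phosphoglucomutase and isomerase, phosphoglucomutase was therefore the highest, at a level over 4 times that of Hk2 in each library.

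The RNA of phosphofructokinase, the step that commits sugar to glycolysis, was almost wholly that of Pfkm, the M subunit and the gene mutated in a muscle glycogen storage disease. It had 1421 TPM in replicate 2 and 1441 in replicate 1. Pfkl, the liver subunit, had 3.08 and 3.29 TPM, and Pfkp, the platelet subunit, 1.27 and 1.47 TPM. Pfkm was 461 and 438 times Pfkl in replicates 2 and 1 and held 99.7 ± 0.02% of the group. Pfkp shares 748 exon bases on the other strand with Pitrm1, which had 999 and 897 counts against 82 and 88 for Pfkp, so the Pfkp level rests on the library being counted by strand.

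Aldolase showed the steepest contrast among forms that were both detected. Aldoa, aldolase A of muscle and red cells, which splits fructose 1,6-bisphosphate, had 10644.5 TPM in replicate 2 and 11240.5 TPM in replicate 1. Aldoc, aldolase C of brain, had 26 and 32 counts, or 0.54 and 0.78 TPM. Aldoa was 19712 and 14411 times Aldoc. The symbol Aldoa is carried by 2 genes in this annotation; the other, which starts a short way upstream on chromosome 7 (126800790 to 126809108), had 3 and 7 counts and was not used. Tpi1, triose phosphate isomerase, which interconverts the products of that split and has no paralogue in the set, had 1105 and 1186 TPM.

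The payoff steps of the chain followed. Gapdh, glyceraldehyde phosphate dehydrogenase, had 4255 TPM in replicate 2 and 4494 in replicate 1, and its sperm paralogue Gapdhs had 0 counts in both, which makes Gapdh at least 41092-fold and 40857-fold higher when Gapdhs is set to 3 counts per library. Pgk1, phosphoglycerate kinase on the X chromosome, had 381 and 422 TPM, and its sperm paralogue Pgk2 had 0 counts, at least 5265-fold and 5483-fold lower in those libraries by the same floor. Pgk1 was the lowest of the leading enzymes from aldolase to pyruvate kinase: Aldoa was 27.3 ± 0.89 times Pgk1.

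Pgam2, the muscle phosphoglycerate mutase (chromosome 11, 5801640 to 5803733), had 1191 TPM in replicate 2 and 1174 in replicate 1, against 6.26 and 7.26 TPM for Pgam1, the brain form. Bpgm, which makes 2,3-bisphosphoglycerate in red cells and is a cofactor source for the mutase, stood between them at 50.2 and 46.1 TPM, 0.04 ± 0.002 of Pgam2. Erythroid markers were 300 and 370 TPM in the same libraries, lower in replicate 2 where Bpgm was higher; their part in the Bpgm level was not tested. Pgam2 held 95.6 ± 0.13% of the group.

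Eno3, beta enolase of muscle (chromosome 11, 70657202 to 70662513), had 3094 TPM in replicate 2 and 3125 in replicate 1. Eno1, alpha enolase of most tissues, had 30.1 and 34.5 TPM, and Eno2, gamma enolase of neurons, had 27 and 21 counts. Eno3 was 103 and 90.5 times Eno1 and held 98.9 ± 0.08% of the group. Among members with copies, Eno1 had the largest share of TPM in them: 3 near-copies elsewhere in the genome took a further 44.0% and 40.1% of the TPM of Eno1 and copies together, of which Eno1b had 15.3 and 15.3 TPM.

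Of the pyruvate kinase genes only Pkm had counts in the gene tables. Pkm had 1415 TPM in replicate 2 and 1452 in replicate 1, and Pklr, the gene of the liver and red cell enzymes, had 0 counts in both libraries, at least 15935-fold and 15399.6-fold lower by the floor of 3 counts. The kallisto-layout tables, a second deposited quantification of the same libraries, gave Pklr 0 and 0.02 TPM. Pkm is spliced into mutually exclusive forms, M1 of adult muscle and brain, whose enzyme is constantly active, and M2 of growing cells and many other tissues, which is regulated by fructose 1,6-bisphosphate. The forms differ by a single exon of 167 bases. In mm10 the M1 exon lies at chr9:59675029-59675195 and the M2 exon at chr9:59675568-59675734, both on the plus strand and wholly coding. They are shown because reads across this exon are what separates the 2 forms; capitals mark the 64 of 167 positions at which they differ, and the other 103 (61.7%) are identical, in runs of at most 12 bases.
Pkm M1 exon (Pkm-202): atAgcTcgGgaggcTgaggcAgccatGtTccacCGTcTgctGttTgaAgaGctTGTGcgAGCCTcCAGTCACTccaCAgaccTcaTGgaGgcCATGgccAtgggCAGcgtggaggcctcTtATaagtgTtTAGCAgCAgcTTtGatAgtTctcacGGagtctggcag
Pkm M2 exon (Pkm-201): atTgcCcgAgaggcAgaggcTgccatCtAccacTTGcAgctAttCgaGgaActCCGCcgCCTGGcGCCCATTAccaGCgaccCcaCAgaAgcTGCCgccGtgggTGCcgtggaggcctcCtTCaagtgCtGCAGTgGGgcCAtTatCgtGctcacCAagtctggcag
The sequences are those of the reference strain, and alleles of CAST may differ from them.

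Both Pkm forms were assigned a large share. In the kallisto-layout tables Pkm-202, the M1 transcript, had 706 TPM in replicate 2 and 715 in replicate 1, and Pkm-201, the M2 transcript, 620 and 599 TPM. In the RSEM transcript tables, which go with the gene tables, Pkm-202 had 789 and 814 TPM and Pkm-201 597 and 614 TPM. M1 thus took 52.2 ± 1.09% and M2 44.8 ± 0.57% of Pkm TPM in the kallisto-layout tables, against 55.9 ± 0.19% and 42.3 ± 0.04% in the RSEM tables. M1 was above M2 in each library and each quantification. Pkm-201 also has a longer first exon, 282 against 77 bases, and a longer last exon, 648 against 462 bases, so reads in the ends of the gene count towards it too, and the share of the exon itself was not measured apart from these ends.

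Lactate dehydrogenase was mixed. Ldha, the M subunit that favours making lactate from pyruvate, had 1260 TPM in replicate 2 and 1295 in replicate 1. Ldhb, the H subunit of heart and oxidative fibres, had 132 and 147 TPM. Ldhc, the sperm subunit, had 0 counts in both. Ldha was 9.55 and 8.78 times Ldhb, the smallest excess of a muscle form over the next form in the glycolytic chain itself, and its share was 90.5% and 89.8%. The slow fibre markers summed to 1375 and 1578 TPM in the same libraries, and Ldhb too was lower in replicate 2 in TPM. With the scaled counts used below to compare libraries, Ldhb did not differ between them. Its log2 ratio, replicate 2 over replicate 1, was 0.009, with a counting interval of -0.055 to 0.072. The part of slow fibres in the Ldhb level was not tested.

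Of the lactate carriers in the set, the higher RNA level was that of Slc16a3, which encodes MCT4, the low-affinity exporter of glycolytic cells (chromosome 11, 120948480 to 120960868). It had 143 TPM in replicate 2 and 147 in replicate 1. Slc16a1, which encodes MCT1, the carrier through which oxidative cells take lactate up, had 8.26 and 11.1 TPM. Slc16a3 was 17.3 and 13.3 times Slc16a1 and held 93.8 ± 1.09% of the pair in TPM. In expected counts per kilobase of the transcript with the longest coding span, a scale chosen after the data were seen, Slc16a3 was 7.82 and 6.02 times Slc16a1, and the excess thus depends on the length used.

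The enzymes that set fructose 2,6-bisphosphate were among the groups with a leading form below 90%. This metabolite is the strongest activator of phosphofructokinase, and each of the 4 Pfkfb genes encodes an enzyme that can both make and remove it. Pfkfb3, the form with the highest kinase activity, had 137 TPM in replicate 2 and 191 in replicate 1. Pfkfb1, the form of liver and muscle, had 25.5 and 24.4 TPM, Pfkfb4, known from testis and tumours, 17.5 and 15.8 TPM, and Pfkfb2, the heart form, 4.42 and 5.27 TPM. The form named for muscle was thus not the leader: Pfkfb3 held 77.5 ± 4.61%, Pfkfb1 12.1 ± 2.48%, Pfkfb4 8.10 ± 2.02% and Pfkfb2 2.32 ± 0.12% of the group. The Pfkfb3 share was the one that varied most between libraries, 74.2% in replicate 2 and 80.8% in replicate 1. Pfkfb3 was 6.60 ± 1.74 times Pfkfb1 in TPM and 10.7 ± 2.19 times per kilobase of the transcript with the longest coding span. That transcript of Pfkfb3 has 2216 bases, while Pfkfb3-220, also coding, has 4801, so the second ratio depends on the length chosen.

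Fbp2, the muscle fructose 1,6-bisphosphatase, which runs against phosphofructokinase and serves the rebuilding of glycogen from lactate, had 17.2 TPM in replicate 2 and 12.9 in replicate 1. Its liver and kidney paralogue Fbp1, an enzyme of gluconeogenesis, had 0 counts in both, at least 129-fold and 91.3-fold lower. Pfkm was 82.8 and 112 times Fbp2 in TPM.

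The glycerol-3-phosphate dehydrogenases carry electrons from cytosolic NADH to mitochondria. Gpd1, the cytosolic enzyme (chromosome 15, 99717515 to 99725005), had 197 TPM in replicate 2 and 200.98 in replicate 1. Gpd2, the mitochondrial enzyme that completes the shuttle, had 75.6 and 85.9 TPM, and Gpd1l, a cytosolic relative named from its likeness to Gpd1, 7.80 and 9.65 TPM. Gpd1 was 2.60 and 2.34 times Gpd2, which is a partner and not an alternative, and it held 69.0 ± 1.74% of the group. Per kilobase of the transcript with the longest coding span Gpd1 was 4.33 ± 0.13 times Gpd2. Within the cytosolic pair Gpd1 was far above Gpd1l in both libraries.

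Forms known from other tissues ran from undetected to clearly present. The sperm forms Gapdhs, Pgk2 and Ldhc, and Pklr and Fbp1 of liver, had 0 counts, in libraries where 5 of 6 testis markers and 2 of 6 liver markers were also at 0. Of the liver markers 1, Cyp2e1, was at 1 TPM or more. Other forms linked to those tissues were detected, with Pfkl of liver at 3.19 TPM and Pfkfb4, known from testis, at 16.6 TPM on average. Of the forms linked to brain, Aldoc and Eno2 averaged 0.66 and 0.95 TPM and Hk1 and Pgam1 averaged 2.43 and 6.76 TPM, with 2 of 8 nerve markers at 1 TPM or more. Pfkp of platelets averaged 1.37 TPM and Hk3 of leukocytes 0.12 TPM, with 3 of 6 leukocyte markers at 1 TPM or more. Slc2a1, Slc16a1 and Eno1, which many tissues express, averaged 2.31, 9.70 and 32.3 TPM, with all 6 endothelial, all 6 adipocyte and all 5 fibroblast markers at 1 TPM or more. Whether fibres or other cells of the tissue gave these reads was not tested.

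The 2 libraries were then compared with each other, to show how steady each gene is between samples of the same group. Ratios were formed from expected counts scaled with TMM factors, for the 30 members that averaged 100 counts or more, and a gene was counted as different where the higher library exceeded the lower by at least 25%. Fbp2 was the only member that was higher in replicate 2 by this limit (1 of 30; 3.27% of all 9741 genes tested), and Hk1 the only member that was lower by it (1 of 30; 4.35% of all genes tested), so both shares lie near the background. Fbp2 had 584 counts in replicate 2, against 413 in replicate 1. Its log2 ratio was 0.55, and the exact binomial 95% interval, for counting error alone, ran between 0.37 and 0.74. For Hk1 the libraries gave 196 and 269 counts (log2 ratio -0.40, interval -0.68 to -0.13). The difference in Fbp2 was 1.47-fold.

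Within the limit of 25%, the ratios were small. The log2 ratio was above 0 for 20 of 30 members and below 0 for 10 (50.7% of all genes tested were above 0), with a median of 0.04 against 0.002 over all genes tested, and the counting interval lay above 0 for 15 members and below 0 for 3, against 12.4% above and 11.9% below over all genes tested. These intervals narrow as counts grow, so their count is a description and not comparable between genes of different depth. Eno3 (0.15), Pgam2 (0.16), Pfkm (0.11), Gpi1 (0.10), Ldha (0.10), Pkm (0.10), Gapdh (0.08), Aldoa (0.07) and Tpi1 (0.04) were all above 0, and Pgk1 (-0.01) was not. The direction depends on the scale: with library totals 14 members were above 0 and 16 below, where the median of all genes was -0.06, and with the deposited TPM 5 were above and 25 below, where the median of all genes was -0.13. With spike-in totals 24 were above and 6 below, where the median of all genes was 0.09. TMM factors, library totals and spike-in totals each shift all genes by the same amount, so the gap between the median of the members and that of all genes cannot change among them. With the deposited TPM, where it can, the median of the members was -0.10, against -0.13 over all genes.

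Besides Hk1, the members whose interval lay below 0 were a lactate carrier and the leading Pfkfb gene. Slc16a1 had 970 counts in replicate 2 and 1231 in replicate 1 (log2 ratio -0.29, interval -0.41 to -0.17). Pfkfb3 had 11407 and 14006 counts (-0.24, interval -0.28 to -0.21). Pfkfb4 and Pfkfb1 went the other way, with log2 ratios of 0.29 (0.17 to 0.40) and 0.18 (0.05 to 0.30), so the 4 Pfkfb genes did not move together. Summed TPM of adipocyte, endothelial, leukocyte and nerve markers was lower in replicate 2 each time, as the TPM of Hk1 and Slc16a1 was. Single markers such as Cfd went the other way, and the part of these cells in the ratios was not tested. In TPM the gap of Pfkfb3 was wider, 137 against 191, with an effective length of 3072 bases in replicate 2 and 2872 in replicate 1.

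**Figure D3:**
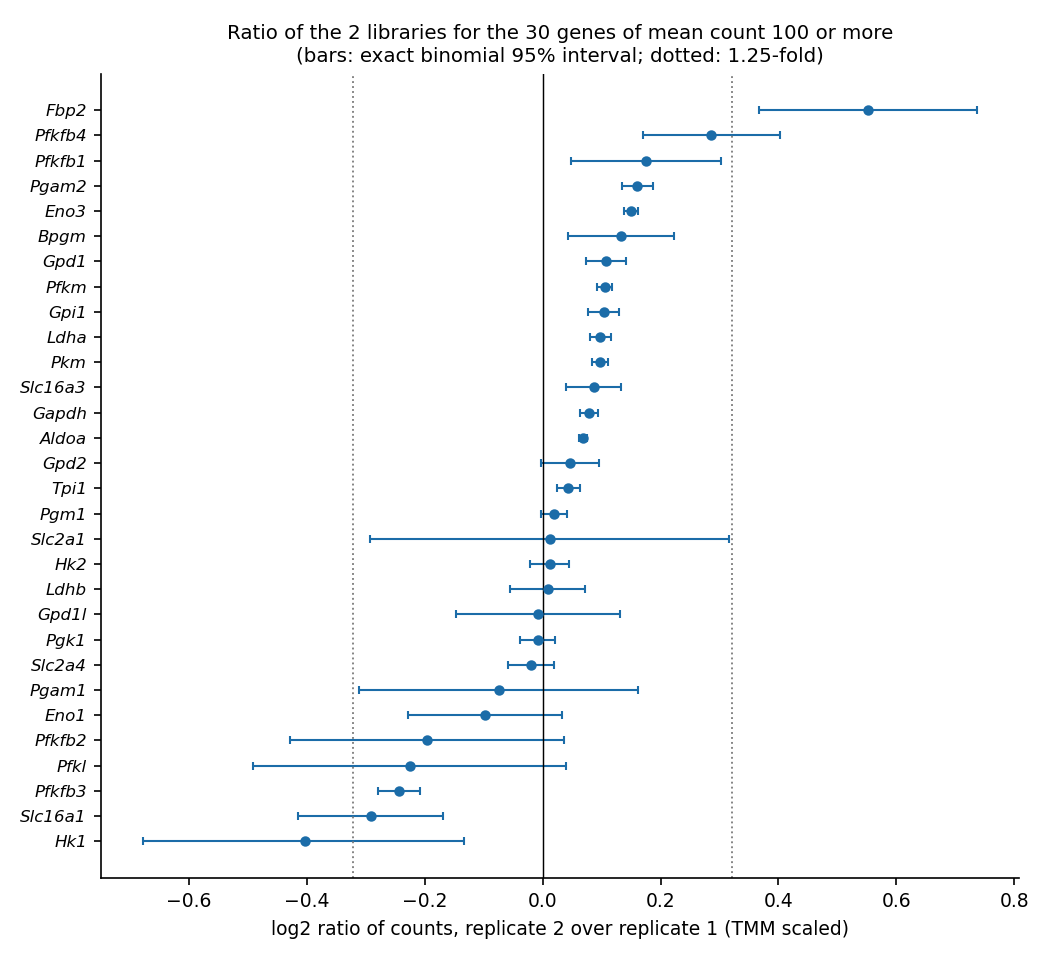
Log2 ratio of TMM-scaled counts, replicate 2 over replicate 1 (horizontal axis), for the 30 members averaging 100 counts or more, with exact binomial 95% intervals; dotted lines mark a difference of 25%. Fbp2 (0.55) and Hk1 (-0.40) lie outside the dotted lines. Pgam2 (0.16), Eno3 (0.15) and Tpi1 (0.04) lie above 0 within them, and Hk2 (0.01) and Slc2a4 (-0.02) lie close to 0.

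Levels of the members were close in the 2 deposited quantifications. Of 31 members with a mean of at least 1 TPM, 0 differed by 1.5-fold or more between the kallisto-layout tables and the gene tables (6.97% of the 11409 genes tested did). With members of lower level added, 0 of 40 did so, but the share over all genes was not computed without the minimum. Gapdhs, Pgk2, Ldhc and Fbp1 were at 0 in both quantifications and could not differ. Eno2, under 1 TPM in the gene tables, came near the limit at 1.47-fold. Among the 31, the log2 ratio ran from -0.27 for Hk2 to 0.52 for Eno3. Hk2 had 104 ± 2.19 TPM in the kallisto-layout tables and 126 ± 7.57 in the gene tables, and Eno3 had 4454 ± 87.8 and 3109 ± 22.3 TPM. Ldha was at 1469 ± 96.3 and 1277 ± 24.9 TPM and Pfkm at 1250 ± 5.98 and 1431 ± 14.8 TPM, the kallisto-layout value given before the gene table value in each case.

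The order of neighbouring genes was less steady than the order of forms within a reaction. Gapdh was 0.99 ± 0.08 times Eno3 in the kallisto-layout tables and 1.41 ± 0.04 times in the gene tables. Per kilobase of the transcript with the longest coding span, Gapdh was 0.82 ± 0.03 times Eno3, with 75347 and 73967 expected counts for Gapdh and 115295 and 107732 for Eno3 in replicates 2 and 1. The effective length behind the Gapdh TPM was 652 and 644 bases, and the transcript with the longest coding span, used for the scale per kilobase, has 1273 bases. Pkm was 0.93 ± 0.05 times Ldha in the kallisto-layout tables and 1.12 ± 0.001 times in the gene tables. Against Pfkm, Pkm was 1.09 ± 0.02 times in the kallisto-layout tables and 1.00 ± 0.01 times in the gene tables. The leading form of every reaction with several forms was the same gene in both quantifications.

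**Figure D4:**
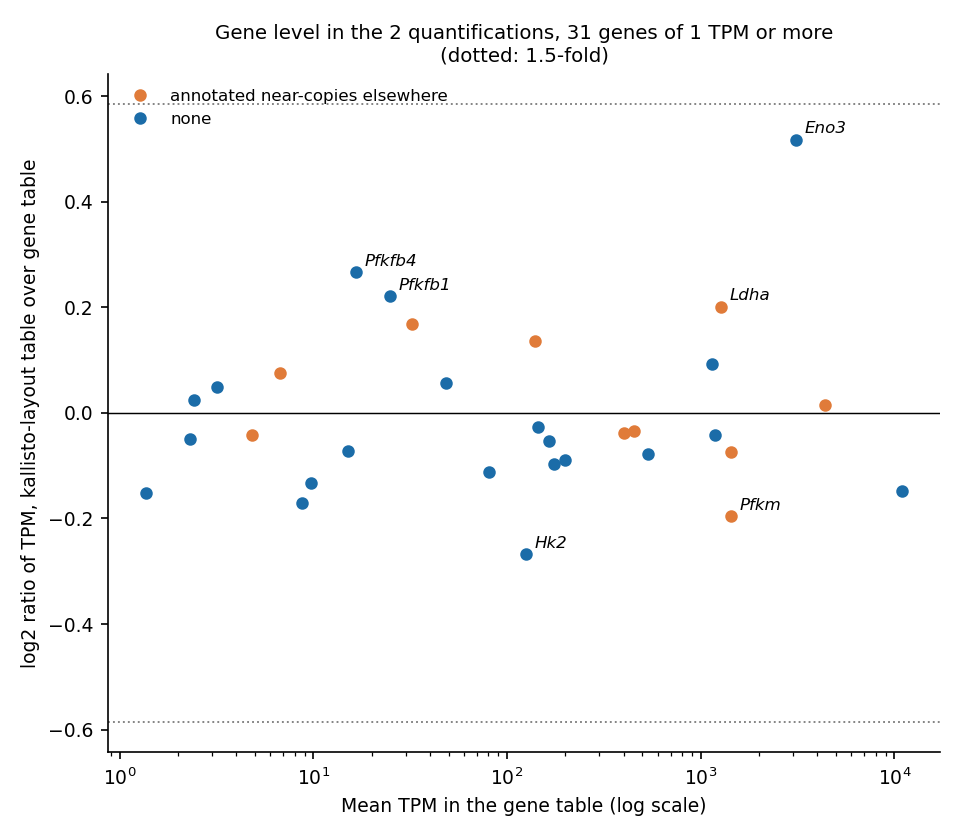
Log2 ratio of TPM, kallisto-layout table over gene table (vertical axis), against mean TPM in the gene table (log axis), for the 31 members of 1 TPM or more. Orange marks members that share at least 100 stretches of 50 bases with another annotated gene, which for Pfkm and Pfkfb2 overlaps the member itself. Dotted lines mark 1.5-fold. Eno3 (0.52) lies highest and Hk2 (-0.27) lowest, and no member passes the dotted lines.

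Copies of the members elsewhere in the genome could take or give reads. No member shared a stretch of 50 bases with another member, 24 shared none with any annotated gene, and 10 shared at least 100 stretches with another annotated gene. For Pfkm and Pfkfb2 that gene overlaps the member's own exons on the same strand (341 and 1262 shared exon bases) and is not a copy elsewhere. Pkm is also overlapped on its own strand, over 767 exon bases. Gapdh had 87 copies with at least 100 shared stretches, 85 of them pseudogenes. These held 29.0% and 28.2% of the TPM of Gapdh and copies together in the kallisto-layout tables, against 3.39% and 2.97% in the gene tables. A single pseudogene on chromosome 7, Gm7336, had 1786 and 1575 TPM in the kallisto-layout tables and 43.4 and 45.7 TPM in the gene tables. Copies of Pgk1 went the other way, with 0.09% and 0.04% in the kallisto-layout tables and 6.70% and 4.16% in the gene tables. The paralogues themselves are more distant: coding sequences within a reaction were 52.6% (Slc16a3 and Slc16a1) to 79.3% (Pgk1 and Pgk2) identical, leaving aside Gpd2 and the phosphoglucomutases, which are not close relatives of their partners.

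Transcripts were less certain than genes. By mean share, the same transcript led in both quantifications for 27 of 31 members, and for 4 (Gapdh, Hk1, Pfkfb3 and Pfkm) it did not. The matching share over all genes was not computed. Among the 27, the leading transcript of Gpd2 and of Pfkfb2 differed between the libraries in the RSEM tables. A single transcript held at least 90% in 7 members in the kallisto-layout tables and in 8 in the RSEM tables, among them Fbp2, Pgam1, Pgam2, Pgk1, Gpd1 and Slc16a1 in both. Pgam2 and Slc16a1 have only 1 annotated transcript, so their share and their leading transcript, also counted in the 27, were fixed in advance. Gapdh was the extreme case: the kallisto-layout tables gave 54.9 ± 0.73% to Gapdh-203 and 24.3 ± 3.74% to Gapdh-207, and 0.17 ± 0.04% to Gapdh-208, a transcript of 483 bases without a coding span, which had 66.6 ± 0.83% in the RSEM tables. Eno3-201 led in both, at 42.6 ± 2.49% in the kallisto-layout tables and 51.7 ± 1.57% in the RSEM tables, but Eno3-203, of 363 bases, had 24.3 ± 7.05% and 1.05 ± 1.48%. Transcripts under 1000 bases took 39.98% of Eno3 TPM in the kallisto-layout tables and 2.48% in the RSEM tables. Slc2a4-201 at 89.3 ± 0.12% and 92.2 ± 1.28%, and Hk2-201 at 84.3 ± 2.73% and 79.0 ± 0.19%, were steady.

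**Figure D5:**
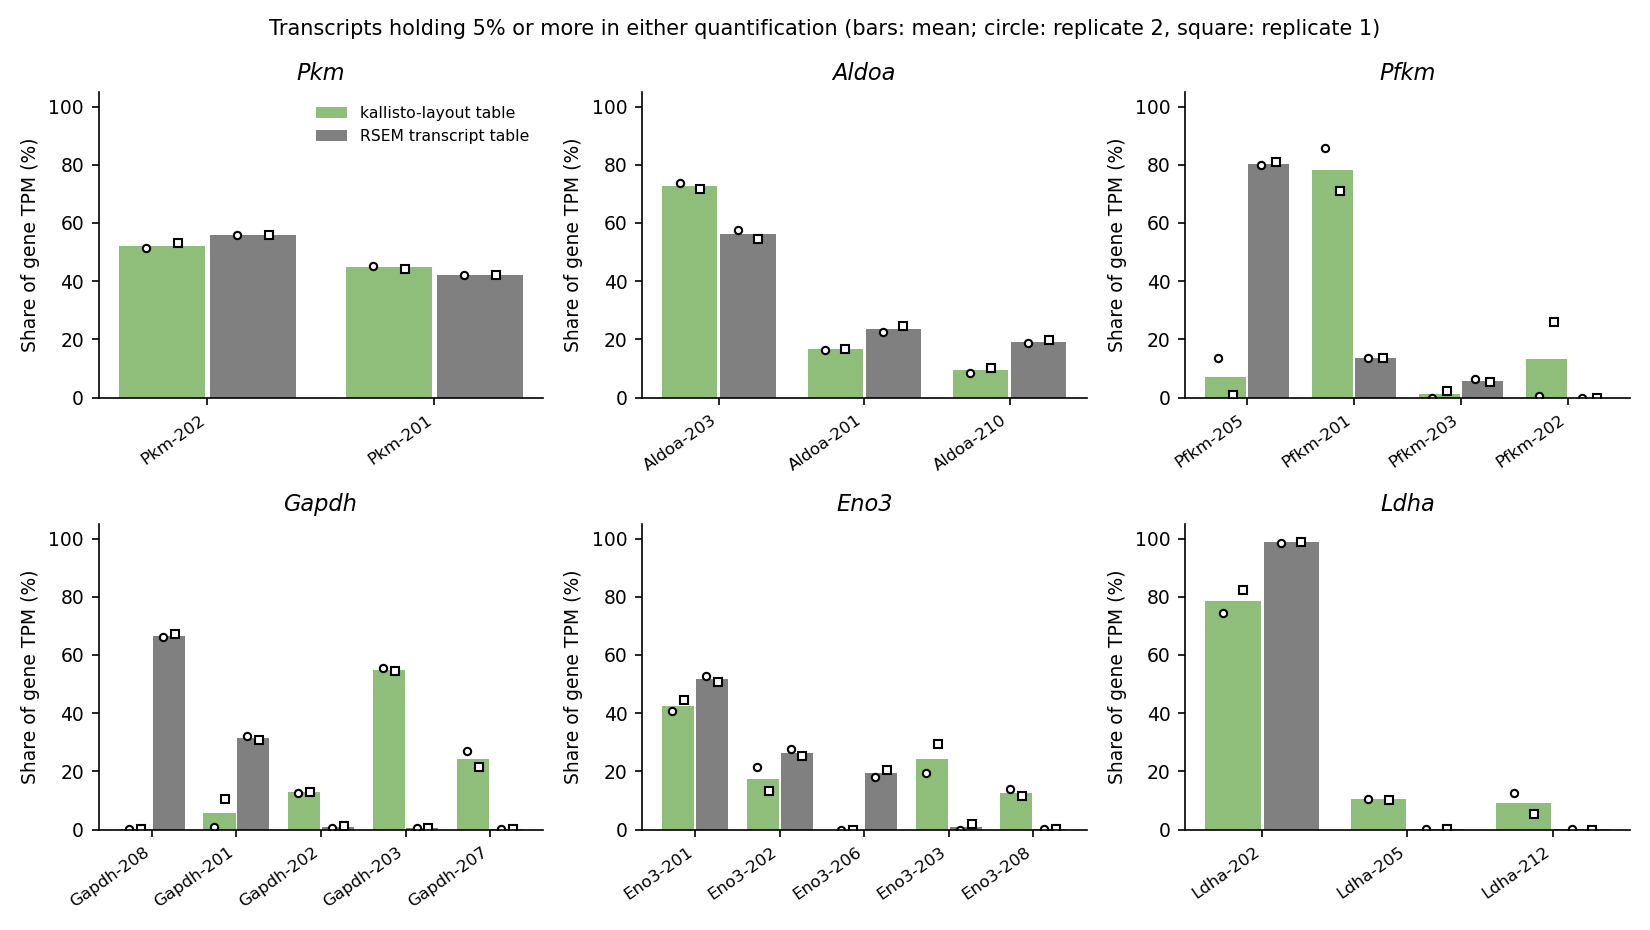
Share of each transcript in the TPM of its gene (percent) for 6 members, kallisto-layout tables in green and RSEM tables in grey, bars at the mean of 2 libraries, circles for replicate 2 and squares for replicate 1. Pkm and Aldoa have the same order of transcripts in both quantifications, whereas Pfkm-205 and Pfkm-201, and the Gapdh transcripts, change places.

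Aldoa and Pfkm have separate starts for transcription, in muscle and in other tissues, and the data bear on which is used. The 5′ ends of transcripts within 100 bases were joined into a start. For Aldoa, on the minus strand of chromosome 7, the start at 126800447 took 72.7 ± 1.61% in the kallisto-layout tables and 56.1 ± 2.10% in the RSEM tables, the start at 126799254 took 17.0 ± 0.25% and 24.1 ± 1.31%, and the start at 126800046 took 9.45 ± 1.22% and 19.2 ± 0.72%. The order of the leading start over the next held in both libraries and both quantifications. For Pfkm, on the plus strand of chromosome 15, it did not hold: the start at 98108466 took 78.3 ± 10.6% in the kallisto-layout tables and 13.7 ± 0.09% in the RSEM tables, and the upstream start at 98092644 took 21.5 ± 10.6% and 86.3 ± 0.08%. The deposited tables thus differ on the leading start of Pfkm.

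The 250 bases before these starts, from the RefSeq promoter table on GRCm38.p6, the assembly called mm10, are shown because each pair feeds a single gene from different upstream sequence. For Pfkm the nearest RefSeq starts, 98092589 and 98108471, were used. Capitals mark ACGTG on either strand, the core letters of the hypoxia response element, which may overlap an E-box of letters CANNTG.
Aldoa start at 126800447 (chr7:126800448-126800697, minus strand): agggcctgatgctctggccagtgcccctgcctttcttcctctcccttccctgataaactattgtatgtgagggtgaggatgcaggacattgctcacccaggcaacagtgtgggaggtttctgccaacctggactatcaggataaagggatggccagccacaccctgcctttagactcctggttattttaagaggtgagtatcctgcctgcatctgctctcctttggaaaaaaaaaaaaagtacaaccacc
Aldoa start at 126799254 (chr7:126799255-126799504, minus strand): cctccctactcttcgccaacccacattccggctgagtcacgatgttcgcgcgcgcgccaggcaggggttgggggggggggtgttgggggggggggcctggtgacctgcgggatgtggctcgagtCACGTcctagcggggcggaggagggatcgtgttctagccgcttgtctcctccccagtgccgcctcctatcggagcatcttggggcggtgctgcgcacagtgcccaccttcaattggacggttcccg
Pfkm upstream start (chr15:98092339-98092588, plus strand): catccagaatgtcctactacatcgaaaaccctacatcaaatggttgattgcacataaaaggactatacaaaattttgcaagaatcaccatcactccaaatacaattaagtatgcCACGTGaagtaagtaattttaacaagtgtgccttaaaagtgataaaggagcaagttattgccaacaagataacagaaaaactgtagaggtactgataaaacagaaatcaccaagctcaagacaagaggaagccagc
Pfkm downstream start (chr15:98108221-98108470, plus strand): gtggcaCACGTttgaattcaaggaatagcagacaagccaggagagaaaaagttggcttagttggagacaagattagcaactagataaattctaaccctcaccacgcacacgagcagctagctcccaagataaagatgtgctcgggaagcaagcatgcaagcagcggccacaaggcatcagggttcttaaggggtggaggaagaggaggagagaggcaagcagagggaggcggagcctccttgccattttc
The Aldoa start that leads in these libraries had no match to ACGTG and 1 to CANNTG, and the other Aldoa start had 1 of each. The Pfkm upstream start had 2 matches to ACGTG, on opposite strands at a single palindrome, and 3 to CANNTG, and the downstream start had 1 and 0. None of the 4 stretches held TATAAA, the letters of a TATA box, on either strand. None matched the single MEF2 pattern searched, which fixed the letters at both ends of the site and left the middle free. MEF2 sites with other end letters were not searched for, so the lack of a match does not show that a stretch has no such site. A match describes letters only.

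Across the set, 38 of the 40 members matched the promoter table, with 59 starts. ACGTG on either strand was present before at least 1 start of 18 of these 38 members (47.4%), against 4998 of all 27025 genes (18.5%). The 18 were Aldoa, Fbp2, Gpd1l, Gpd2, Hk2, Hk3, Ldha, Pfkfb2, Pfkfb3, Pfkm, Pgam1, Pgk1, Pgm1, Pgm2, Pkm, Slc16a1, Slc16a3 and Slc2a1, which include leading forms and forms near 1 TPM. CANNTG was present for 25 of 38 members (65.8%), against 69.3% of all genes, and TATAAA for 4 (10.5%, against 14.3%). The MEF2 pattern described above was present for 1, Ldhb (2.63%, against 3.70%), and other forms of the site were not counted. Counted by start, ACGTG was present in 22 of 59 (37.3%), against 16.6% of all 32851 starts. The median G and C content was 55.6% in the promoters of the members and 52.4% in all promoters, and the part of base composition in these counts was not tested.

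Genes that work beside the set were also examined, with a median of 4.71 TPM in replicate 2 and 6.08 TPM in replicate 1. Of 42 listed companions in sugar, pyruvate and lactate handling, 33 were at 1 TPM or more in both libraries and 3 (Hkdc1, Eno4 and G6pc) had 0 counts. The 8 highest were Bsg, the partner that carries MCT1 and MCT4 to the membrane (257 ± 5.71 TPM), Mdh1 of the malate-aspartate shuttle (227 ± 21), Mpc1 and Mpc2, the subunits of the mitochondrial pyruvate carrier (198 ± 18.2 and 136 ± 4.08), Got1 of the same shuttle as Mdh1 (131 ± 16.0), Tigar, a phosphatase that lowers fructose 2,6-bisphosphate (64.1 ± 3.07), Taldo1, a transaldolase of the pentose phosphate pathway (37.3 ± 1.29), and H6pd, which starts that pathway in the endoplasmic reticulum (31.3 ± 0.00).

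Between the libraries 31 companions could be compared. By the limit of 25%, 1 of 31 was higher in replicate 2 and 2 were lower, near the shares over all genes tested (3.27% and 4.35%). Tkt, a transketolase, was the one that was higher (233 counts in replicate 2, against 188 in replicate 1; log2 ratio 0.36, interval 0.08 to 0.65). Pck1, which makes phosphoenolpyruvate in liver and fat, was lower (287 counts, against 410; log2 ratio -0.46, interval -0.69 to -0.24), as was Slc16a6, a relative of the lactate carriers (99 counts, against 130; log2 ratio -0.34, interval -0.73 to 0.05). Adipocyte markers were 155 TPM in replicate 2 and 215 TPM in replicate 1, in the same direction as Pck1, and their part was not tested.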

How the data were processed

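Gastrocnemius RNA from 5xFAD/CAST mice was profiled in 2 libraries of 1 group. The labels' protocols name a tissue RNA purification kit and a directional library kit, and the labels name mm10 and spike-ins for ribosome-reduced libraries. The gene set matched GENCODE M21. The aligner and its version were not given in the sources used here. The deposited gene and RSEM tables hold, per the file headers, expected counts and TPM, and the kallisto-layout tables hold the authors' estimated counts and TPM per transcript, summed here per gene. The deposited scores, bounds of a credibility interval of TPM and a posterior SD of the count, were not used for error: the TPM lay outside its interval in at least 1 library for 21 of 40 members.

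The 40 members and all lists were chosen with earlier results of these data known. Named are all members, transcripts with a mean share of at least 10% in both quantifications where the text turns on them, the 8 companions of highest TPM and companions that averaged 100 counts or more and differed by at least 25%; other transcripts and companions, and Gm7336, were named after their values were seen. For ratios of replicates, expected counts were made whole and scaled with edgeR 4.0.16 (R 4.3.3) by TMM over genes averaging 10 counts or more, adding 0.5 counts; log2 ratios between quantifications used a pseudocount of 0.1 TPM. Spike-ins and numbered short sequences were left out of gene totals. A gene at 0 was set to 3 counts per library for a bound. Intervals are exact and cover counting error only, since reads are not independent molecules, and the spread between these 2 libraries may be partly technical. Copies were found from shared stretches of 50 bases in the annotated transcripts; coding sequences were aligned with Biopython 1.88. Promoters are from RefSeq. Alternatives were DESeq2 1.42.0 size factors and the others named in the closing section. Steps were tested on simulated libraries. scipy 1.17.1 and pandas 2.3.3 were used.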

Additional observations from a re-analysis of the deposited data

How the results depend on the processing

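Most counts stayed within 1.5 times of the reported value. Members at 1 TPM or more numbered 30 with the kallisto-layout tables and 34 with the posterior mean or with TPM over nuclear protein-coding genes, against 31; reactions led at 90% or more numbered 11 to 13, the lowest with expected counts per kilobase, an alternative chosen after seeing the data, which put Ldha at 89.9% and Slc16a3 at 87.2%. No alternative changed the leading form of a reaction. The number of members differing by 25% or more between replicates fell to 0, against 2, with a mean count minimum of 500, which removes Fbp2 and Hk1 from the genes tested. Pfkfb4 joined Fbp2 and Hk1 left with spike-in totals, Slc16a1 joined with library totals, and Pfkfb3 and Slc16a1 replaced Hk1 with deposited TPM. Of all genes tested, 6.85% were higher and 2.06% lower in replicate 2 with spike-in totals. The shares were 2.08% and 6.85% with library totals and 2.75% and 16.3% with deposited TPM, each scale giving 30 members. Members at 1.5-fold between quantifications ranged from 0 to 1 with either library left out, the 1 being Eno2 without replicate 1. Companions at 5 TPM or more numbered 19, against 33 at 1 TPM. The leading transcript changed in the kallisto-layout tables for Gapdh-208 (0.17%), Hk1-202 (20.9%), Pfkfb3-202 (15.9%) and Pfkm-205 (7.16%), and with a library left out for Hk1-202 (range 23.5% to 81.0%), Gpd2-201 (49.8% to 53.4%) and Pfkfb2-203 (23.8% to 27.0%), the lowest value being without replicate 1 for Hk1-202 and without replicate 2 for the others; the cause was not tested. Depth limits the statements on Hk3, Aldoc, Eno2 and Pgm2, with under 60 counts per library. No paired analysis was possible because the series has a single group.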
